A study of Mus musculus with 8 samples.

Results

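The genes described here encode the machinery that sorts cargo at endosomes and fuses vesicles with their targets: the sorting nexins (Snx), the vacuolar protein sorting (Vps) proteins, the charged multivesicular body proteins (Chmp), the syntaxins (Stx) and the vesicle-associated membrane proteins (Vamp). Members were the genes whose symbol begins with 1 of these 5 names followed by a number, each represented by its brightest probe set on average over the 8 arrays. This gave 96 of the 18193 genes on the array, read by 211 of its 45101 probe sets: 30 sorting nexins, 35 Vps proteins, 14 syntaxins, 10 Chmp proteins and 7 Vamp proteins. The rule used names and mean signal only, not the comparison between genotypes. Vps72 matches it by name, although its protein is a histone chaperone of the nucleus.

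The study removed Zfx, an X-linked zinc finger transcription factor, from mouse embryonic stem cells (ESC) and from haematopoietic stem cells (HSC), and hybridised RNA of each genotype in duplicate to Affymetrix Mouse Genome 430 2.0 arrays. There were 8 arrays in 4 groups of 2. Zfx-null ESC were Zfxnull clones, and Zfx-flox ESC were control Zfxflox clones in which the floxed gene was left in place. Both were grown on gelatin without feeders, in medium with Knockout SR (serum replacement) and LIF. Zfx-cko HSC came from Mx1-Cre+ Zfxflox/y mice, and Zfx-flox HSC from Zfxflox/y littermates without Cre. Mx1-Cre is switched on by interferon, which injections of pI·C induce, and it acts in many interferon-responsive cells besides HSC. Marrow was pooled from 4 to 6 mice and taken 4 days after pI·C injections had ended, and cells negative for lineage markers and positive for Sca-1 and c-Kit were sorted. All ESC of both genotypes carry a targeted Zfx allele, as do all mice, and the Cre transgene is present in the Zfx-cko mice only, so its presence and the loss of Zfx cannot be told apart in HSC. The labels do not say how many clones or pools stand behind each pair of arrays. The p-values therefore rest on the variation among duplicate arrays, which may hold the same RNA.

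Retrograde sorting begins when retromer, a complex of Vps35, Vps29 and a Vps26 protein, gathers receptors on the endosome together with sorting nexins that bend the membrane into tubules. Cargo marked with ubiquitin goes the other way: ESCRT complexes, which include Vps28, the Vps37 proteins and Vps36, pass it into inward buds that Chmp filaments pinch off and that the ATPases Vps4a and Vps4b clear. Arriving vesicles are held by tethers such as HOPS and GARP and are then fused by SNARE proteins, of which syntaxins sit mostly on the target membrane and Vamp proteins mostly on the vesicle. In blood cells this machinery serves receptor recycling and granule release, and in growing cells it bears on how long growth factor receptors stay at the surface.

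Median signal ranged from 38.4 to 66.5 per array after the authors' scaling to a trimmed mean of 250. Arrays of 1 group correlated at r = 0.980 to 0.987 on the log2 scale, and the genotypes at 0.963 to 0.971. The 4 probe sets annotated to Zfx alone were all higher in Zfx-null ESC than in Zfx-flox ESC. The probe set with the highest mean read 477 and 547 in Zfx-null ESC, against 262 and 318 in Zfx-flox ESC, and 1192 and 1209 in Zfx-cko HSC, against 696 and 752 in Zfx-flox HSC. The HSC probe sets disagreed: another was lower, with 97.4 and 84.7 in Zfx-cko HSC, against 109 and 162 in Zfx-flox HSC, one more overlapped (36.8 and 29.7 in Zfx-cko HSC, against 28.9 and 34.3 in Zfx-flox HSC), and the dimmest read 24.9 and 18.9 in Zfx-cko HSC, against 4.32 and 9.95 in Zfx-flox HSC. The sources used here do not place these probe sets relative to the deleted part of the gene, so they do not check the labels. The ESC markers Pou5f1, Nanog and Sox2 were below the pseudocount of 14.2 in every HSC group and read 1361 or more on every ESC array. Ptprc and Cd34 read 1058 or more on every HSC array and at most 56.1 on every ESC array. Pou5f1 fell in Zfx-null ESC (−1.01 on the log2 scale, adjusted p = 0.0166) and Cd34 was higher in Zfx-cko HSC (1.62, adjusted p = 4.64e-06). Of such markers, 2 of 5 tested were lower in ESC (14.9% of all genes) and 3 of 3 higher in HSC (22.7%), at an adjusted p under 0.05. The list of 7 summed to 9136 to 9466 in Zfx-null ESC, against 13559 to 13592 in Zfx-flox ESC. In HSC it summed to 8148 to 8198 in Zfx-cko cells, against 3949 to 4060 in Zfx-flox cells.

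In ESC, 32 of the 90 members tested were higher and 7 were lower in Zfx-null than in Zfx-flox cells at an adjusted p under 0.05. Over all 12676 genes tested in ESC the test called 30.7%, with 15.8% higher and 14.9% lower, against 35.6% and 7.78% of the members. The median log2 change was 0.17 over the members and −0.03 over all genes. In HSC, 21 of 92 members were higher and 17 were lower in Zfx-cko than in Zfx-flox cells, which is 22.8% and 18.5%, and the test called 42.6% of all 12533 genes, 22.7% higher and 19.9% lower. The member counts in HSC therefore lay near those of all genes, with medians of 0.06 for members and 0.03 for all genes. That balance moved with the scaling: quantile normalization within each cell type gave 17 higher and 22 lower with a member median of −0.04, and median centring gave 14 and 18 with a median of −0.04. All genes shifted the same way, to 2527 higher and 2820 lower with quantile normalization and 2155 and 2748 with median centring, beside 2849 and 2491 as scaled by the authors. Every called member had arrays that did not overlap between genotypes. Together with members that were not called, 58 of 90 did not overlap in ESC and 63 of 92 in HSC, beside 64.5% and 72.4% of all genes. Changes above 0, without regard to the test, made up 60 of 90 members in ESC and 52 of 92 in HSC, beside 46.4% and 52.4% of all genes.

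Before these tests, genes with a mean signal under 39.1 in ESC or 25.4 in HSC were left out. Snx31, Snx32, Stx19, Vamp5, Vps13c and Vps25 were not tested in ESC, and Chmp4c, Snx32, Stx19 and Stx1a were not tested in HSC. Snx31 was the only member that reached the HSC test with 1 group below the floor, and it did not pass. Fold changes below are differences of log2(signal + 14.2), which understates the change of dim genes, and errors are standard errors of the limma fit with 2 arrays per group. Fewer cells of a type and less RNA per cell cannot be told apart in these samples.

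**Figure D1:**
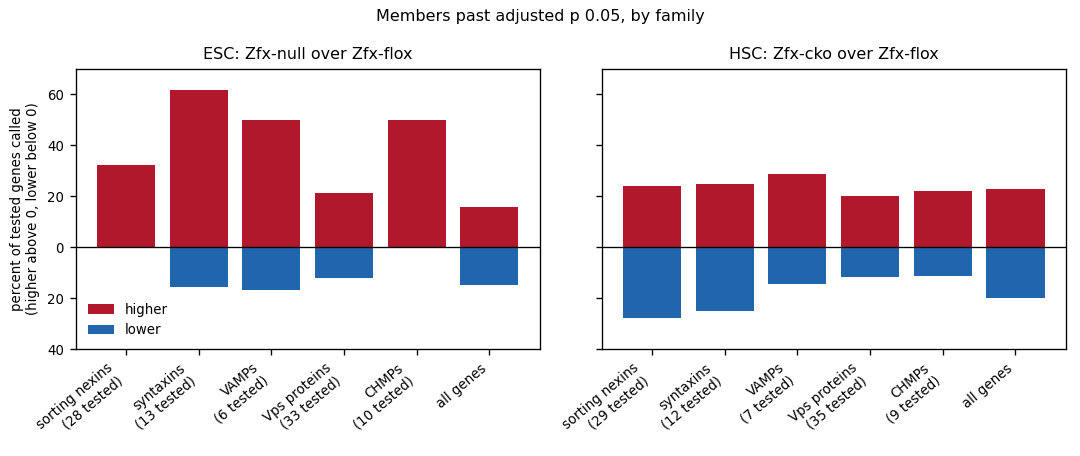
Percent of tested genes higher (red, above 0) and lower (blue, below 0) at an adjusted p under 0.05, for each family and for all genes, in ESC (Zfx-null over Zfx-flox, left) and HSC (Zfx-cko over Zfx-flox, right). In ESC no sorting nexin and no Chmp gene was called lower, while in HSC 7 sorting nexins were higher and 8 were lower.

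Markers of other cells moved with genotype as well. The shares over all genes tested were 15.8% higher and 14.9% lower in ESC, and 22.7% higher and 19.9% lower in HSC. In ESC, 8 of 13 tested stroma and endothelium markers were higher in Zfx-null cells, and the summed signal of that list was 26896 to 28312 in Zfx-null ESC, against 14699 to 14889 in Zfx-flox ESC. Of 12 tested differentiation markers 3 were higher and 2 were lower in ESC, and the list summed to 6634 to 6921 in Zfx-null ESC and 4484 to 4592 in Zfx-flox ESC. In HSC, 8 of 20 tested markers of mature blood cells were higher and 3 were lower, with summed signal of 26676 to 27118 in Zfx-cko HSC, against 20910 to 20999 in Zfx-flox HSC. Stroma and endothelium markers, 3 of 8 of them higher and 0 lower, summed to 1404 to 1557 in Zfx-cko HSC, against 673 to 702 in Zfx-flox HSC. Differentiation markers, 3 of 7 of them higher and 0 lower, summed to 1543 to 1633 in Zfx-cko HSC, against 843 to 884 in Zfx-flox HSC. In log2 change, the platelet genes Gp9 (2.35) and Pf4 (1.85) were higher, and Gata1 (−1.64) and the erythroid factor Klf1 (−2.52) were lower. Cd3e, Cd3g and Itgam stayed below the pseudocount in both HSC groups. The part of these markers in the member counts was not tested.

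**Figure D2:**
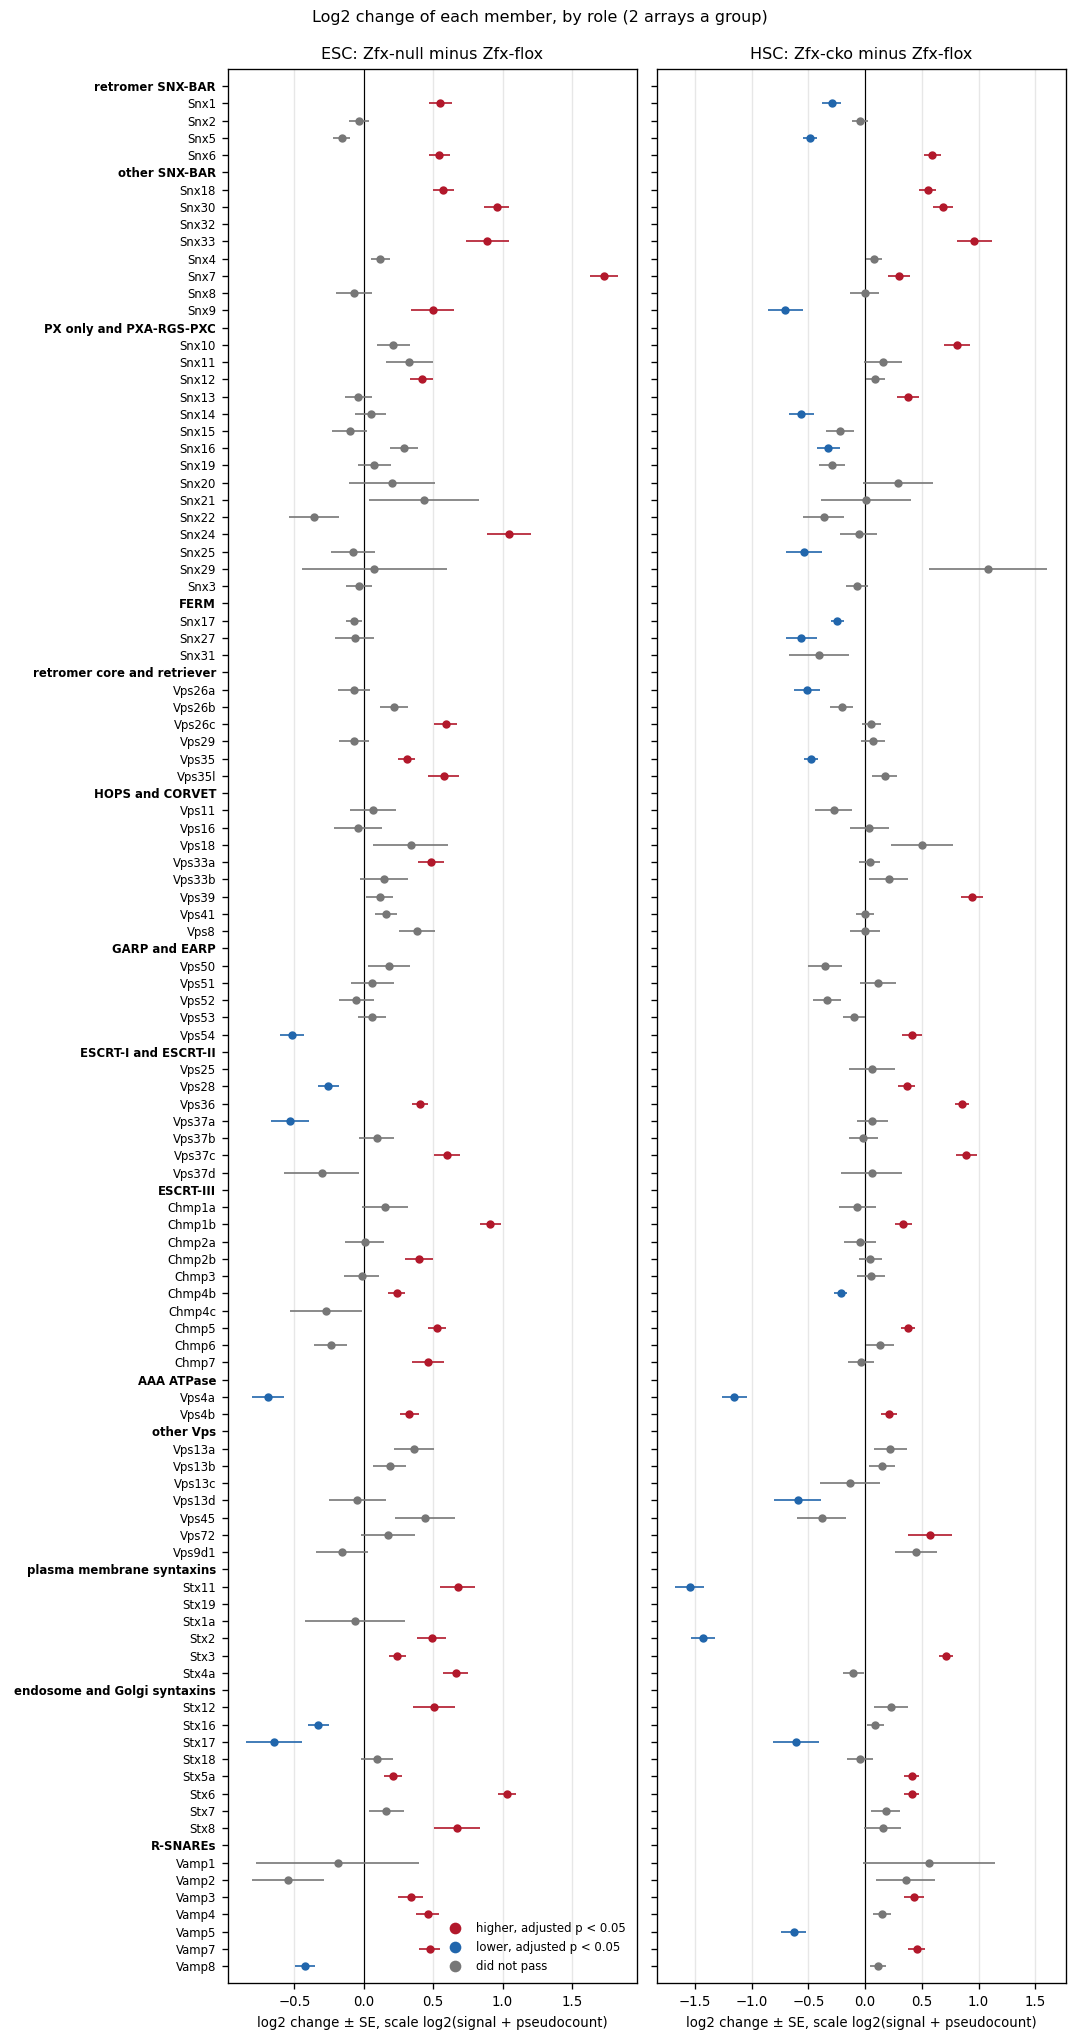
Log2 change ± SE of each member, grouped by role, in ESC (Zfx-null minus Zfx-flox, left) and HSC (Zfx-cko minus Zfx-flox, right), on the log2(signal + 14.2) scale with 2 arrays per group. Red and blue points passed an adjusted p of 0.05 and grey points did not. Snx7 at 1.73 is farthest to the right in ESC, and Stx11 at −1.55 is farthest to the left in HSC.

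In ESC 3 of the 6 retromer and retriever genes rose and none fell, whereas in HSC 2 fell and none rose. Vps35, the scaffold that holds retromer together, read 3104 and 2827 in Zfx-null ESC, against 2449 and 2328 in Zfx-flox ESC. It rose in ESC (log2 change 0.31 ± 0.06, adjusted p = 0.00541). The same probe set read 2219.9 and 2263 in Zfx-cko HSC, against 3114 and 3149.8 in Zfx-flox HSC, and there it fell (log2 change −0.48 ± 0.06, adjusted p = 0.000261). Its arrays lay above those of the floxed cells in ESC and below them in HSC. Vps26a, the cargo-side arm of retromer, also fell in HSC (883 and 831 in Zfx-cko HSC, against 1079 and 1391 in Zfx-flox HSC, log2 change −0.51 ± 0.12, adjusted p = 0.00666), and its change was −0.33 without HSC Zfx-flox replicate 2. Of the genes of retriever, a related complex that recycles integrins, Vps26c rose in ESC (632 and 657 in Zfx-null ESC, against 433 and 414 in Zfx-flox ESC, log2 change 0.59 ± 0.08, adjusted p = 0.000859), and so did Vps35l (log2 change 0.57 ± 0.11, adjusted p = 0.00483), while in HSC both were within 0.2 of 0 and did not pass. A dimmer Vps35l probe set was higher in HSC (0.70, adjusted p = 0.0254). With the mean of all probe sets of a gene in place of the brightest, the HSC change of Vps35 was −0.17 (adjusted p = 0.302), its ESC change 0.32 (adjusted p = 0.08) and the ESC change of Vps35l 0.34 (adjusted p = 0.333).

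The sorting nexins with a BAR domain, which curve membranes, held 7 of the 9 sorting nexin calls in ESC. Of the 4 that pair with retromer, Snx1 and Snx6 rose in ESC. Snx1 read 424 and 439.9 in Zfx-null ESC, against 271 and 311 in Zfx-flox ESC, and 753 and 757 in Zfx-cko HSC, against 929 and 927 in Zfx-flox HSC. It rose in ESC (log2 change 0.55 ± 0.08, adjusted p = 0.0014) and fell in HSC (log2 change −0.29 ± 0.08, adjusted p = 0.0202). Snx5, a partner of Snx1 in membrane-bending dimers, fell in HSC (3139 and 3470.5 in Zfx-cko HSC, against 4571 and 4657 in Zfx-flox HSC, log2 change −0.48 ± 0.06, adjusted p = 0.000261), and in ESC its change of −0.16 ± 0.06 did not pass. Snx6, which replaces Snx5 in the same dimers, rose in both cell types: it read 965 and 1071 in Zfx-null ESC, against 655 and 733 in Zfx-flox ESC (log2 change 0.54 ± 0.08, adjusted p = 0.000955), and 2034 and 2004 in Zfx-cko HSC, against 1325 and 1343 in Zfx-flox HSC (log2 change 0.59 ± 0.08, adjusted p = 0.000278). Among these 4 genes, then, Snx5 and Snx6 lay on opposite sides of 0 in HSC, and Snx2 passed in neither cell type. The HSC change of Snx1 was −0.30 to −0.29 (adjusted p = 0.0785 to 0.0865) with any 1 of the 4 HSC arrays left out. The Snx6 probe set with the highest linear mean gave 1.20 (adjusted p = 7.44e-05) in ESC, and the mean of all probe sets gave −0.26 for Snx5 in HSC. Another Snx6 probe set also rose, by 1.01 in ESC and 0.62 in HSC. A dimmer one passed in neither, with −0.13 (adjusted p = 0.406) in ESC and −0.05 (adjusted p = 0.767) in HSC.

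Among the other BAR-domain nexins, 5 of 7 tested rose in ESC and 4 rose and 1 fell in HSC. Snx7, a recycling nexin that pairs with Snx4, had the largest change of any member in ESC. It read 858 and 899 in Zfx-null ESC, against 267 and 243 in Zfx-flox ESC (log2 change 1.73 ± 0.10, adjusted p = 1.63e-05), and 200.3 and 212 in Zfx-cko HSC, against 167 and 163 in Zfx-flox HSC (log2 change 0.30 ± 0.10, adjusted p = 0.0374). The HSC groups were thus separate but close, and the HSC change was 0.26 to 0.34 (adjusted p = 0.0557 to 0.151) with either ESC Zfx-null array or any 1 of the 4 HSC arrays left out, and 0.13 (adjusted p = 0.344) with quantile normalization over all arrays. Snx30, the closest relative of Snx7, read 703 and 771 in Zfx-null ESC, against 383 and 362 in Zfx-flox ESC (log2 change 0.96 ± 0.09, adjusted p = 0.000112), and 449 and 459.7 in Zfx-cko HSC, against 269 and 286 in Zfx-flox HSC (log2 change 0.68 ± 0.09, adjusted p = 0.000266). Snx18, Snx33 and Snx9 carry an SH3 domain and act in endocytic budding. Snx33 rose in both cell types, with 212 and 211 in Zfx-null ESC, against 114 and 102 in Zfx-flox ESC (log2 change 0.89 ± 0.16, adjusted p = 0.00278), and 205 and 200.5 in Zfx-cko HSC, against 111 and 85 in Zfx-flox HSC (log2 change 0.96 ± 0.16, adjusted p = 0.00101). Snx18 rose by similar amounts in both (0.57 ± 0.07 in ESC and 0.55 ± 0.07 in HSC, adjusted p = 0.000621 and 0.000344), with 0.20 in HSC when all its probe sets were averaged. Snx9 alone of the 3 changed in opposite directions: it read 423 and 314 in Zfx-null ESC, against 248 and 261 in Zfx-flox ESC (log2 change 0.50 ± 0.16, adjusted p = 0.0404), and 119 and 101 in Zfx-cko HSC, against 192 and 183 in Zfx-flox HSC (log2 change −0.70 ± 0.16, adjusted p = 0.00583). Its rise in ESC was at 0.29 to 0.53 (adjusted p = 0.0577 to 0.247) with ESC Zfx-null replicate 1, either ESC Zfx-flox array or either HSC Zfx-flox array left out, and at 0.26 (adjusted p = 0.135) for the mean of its probe sets.

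Of the sorting nexins with a PX domain and neither a BAR nor a FERM domain, 2 of 15 were higher in ESC, and 2 were higher and 3 lower in HSC. Snx24, a small PX protein, rose in ESC (915 and 981 in Zfx-null ESC, against 528 and 386 in Zfx-flox ESC, log2 change 1.05 ± 0.16, adjusted p = 0.00153) and read 84.1 and 72.3 in Zfx-cko HSC, against 88.9 and 75.2 in Zfx-flox HSC, where its change of −0.06 ± 0.16 did not pass. Snx12, a relative of the retromer cargo adaptor Snx3, rose in ESC (log2 change 0.42 ± 0.08, adjusted p = 0.00565), with 0.31 (adjusted p = 0.0576) for the mean of its probe sets. In HSC, Snx10, which shapes endosomes and is needed by bone-resorbing osteoclasts, rose (1752 and 1885 in Zfx-cko HSC, against 1035 and 1025 in Zfx-flox HSC, log2 change 0.81 ± 0.12, adjusted p = 0.000516). Of the long nexins with PXA and RGS domains, Snx13 rose (log2 change 0.38 ± 0.10, adjusted p = 0.013), while Snx14, which links the endoplasmic reticulum to lipid droplets, fell (125 and 157 in Zfx-cko HSC, against 209.7 and 217 in Zfx-flox HSC, log2 change −0.56 ± 0.11, adjusted p = 0.00334) and Snx25 fell (log2 change −0.54 ± 0.16, adjusted p = 0.0234). Snx16, an endosomal nexin with a coiled coil, fell as well (log2 change −0.32 ± 0.10, adjusted p = 0.0297). Both FERM-domain cargo adaptors tested past the floor in each cell type fell in HSC: Snx17, which recycles integrins through retriever (log2 change −0.25 ± 0.06, adjusted p = 0.00784), and Snx27, which brings cargo to retromer, with 227 and 193 in Zfx-cko HSC, against 317 and 314 in Zfx-flox HSC (log2 change −0.56 ± 0.14, adjusted p = 0.0102). In ESC these adaptors read within 0.1 of 0. Several of these HSC calls missed the threshold with 1 array fewer. The Snx13 change was 0.35 to 0.38 (adjusted p = 0.0535 to 0.0705) with HSC Zfx-cko replicate 2 or either HSC Zfx-flox array left out. That of Snx16 was −0.34 to −0.30 (adjusted p = 0.0785 to 0.11) with any 1 of the 4 HSC arrays left out, that of Snx25 −0.55 to −0.45 (adjusted p = 0.0807 to 0.131) with either HSC Zfx-cko array or HSC Zfx-flox replicate 2 left out, that of Snx17 −0.24 to −0.21 (adjusted p = 0.0502 to 0.0686) with HSC Zfx-cko replicate 2 or HSC Zfx-flox replicate 2 left out and that of Snx27 −0.45 (adjusted p = 0.075) with HSC Zfx-cko replicate 2 left out. Averaging probe sets gave −0.14 (adjusted p = 0.323) for Snx16, and median centring gave 0.28 (adjusted p = 0.122) for Snx13. Another Snx13 probe set gave 0.94 (adjusted p = 0.000255) in HSC, and a dimmer one was not tested there.

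**Figure D3:**
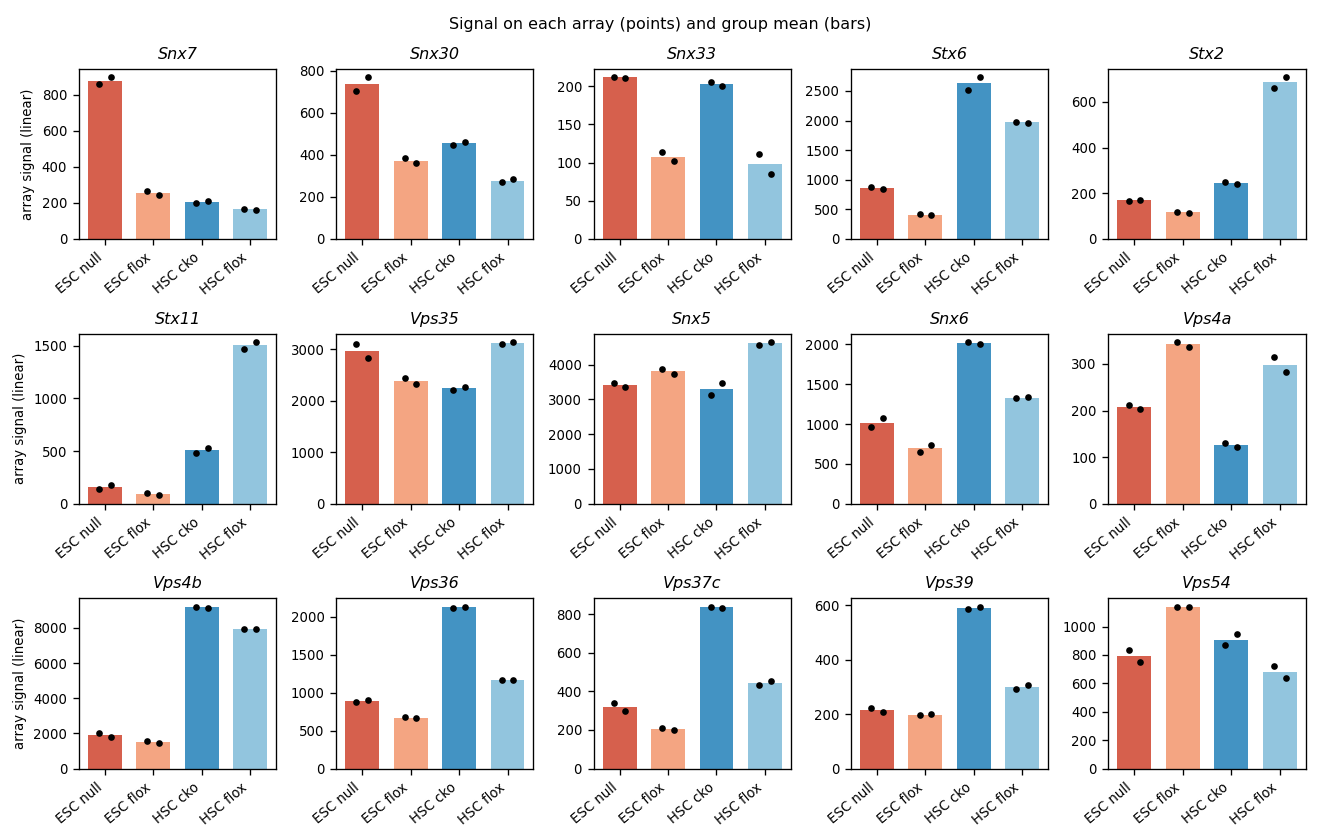
Linear array signal of 15 members on each array (points) with the mean of the 2 arrays of a group (bars), in Zfx-null ESC, Zfx-flox ESC, Zfx-cko HSC and Zfx-flox HSC from left to right, each panel with its own axis from 0. Stx2 and Stx11 are low in Zfx-cko HSC (239 to 531) beside Zfx-flox HSC (661 to 1536), and Vps4a is low in both Zfx-null ESC and Zfx-cko HSC.

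Tethering complexes hold arriving vesicles at the target membrane. Among the HOPS and CORVET genes, 1 of 8 was higher in ESC and another 1 of 8 was higher in HSC. Vps39, which HOPS uses to hold the Rab7-bearing late endosome or lysosome, read 585 and 596 in Zfx-cko HSC, against 293 and 308 in Zfx-flox HSC (log2 change 0.94 ± 0.10, adjusted p = 6.6e-05). In ESC it read 222 and 209 in Zfx-null ESC, against 197 and 199 in Zfx-flox ESC, a change of 0.11 ± 0.10 that did not pass. Averaging its probe sets gave 0.52 in HSC. Vps33a, the SM protein that guides SNARE assembly on HOPS, rose in ESC (238 and 248 in Zfx-null ESC, against 167 and 173 in Zfx-flox ESC, log2 change 0.48 ± 0.09, adjusted p = 0.0045) and stayed at 0.04 ± 0.09 in HSC, with 0.36 (adjusted p = 0.115) in ESC and −0.45 (adjusted p = 0.0472) in HSC for the mean of its probe sets. The shared core genes Vps11, Vps16 and Vps18 did not pass in either cell type, although a dimmer Vps18 probe set was higher in HSC (1.08, adjusted p = 0.00235). Of the 5 genes of GARP and EARP, which receive vesicles at the trans-Golgi and at recycling endosomes, Vps54 alone passed by its brightest probe set, in opposite directions, and a dimmer probe set of Vps53 was lower in HSC (−0.72, adjusted p = 0.00584). Vps54, the subunit that makes the complex GARP rather than EARP, read 836 and 748 in Zfx-null ESC, against 1141 and 1136 in Zfx-flox ESC (log2 change −0.52 ± 0.09, adjusted p = 0.00223), and 872 and 945 in Zfx-cko HSC, against 719 and 638 in Zfx-flox HSC (log2 change 0.42 ± 0.09, adjusted p = 0.00418). Its counterpart in EARP, Vps50, had changes of 0.18 ± 0.15 in ESC and −0.35 ± 0.15 in HSC that did not pass.

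The ATPases Vps4a and Vps4b, which pull ESCRT-III filaments apart, changed in opposite directions from each other and in the same way in both cell types. Vps4a read 211 and 202 in Zfx-null ESC, against 348 and 337 in Zfx-flox ESC, and 131 and 122 in Zfx-cko HSC, against 316 and 282 in Zfx-flox HSC. It fell in ESC (log2 change −0.69 ± 0.11, adjusted p = 0.00207) and in HSC (log2 change −1.15 ± 0.11, adjusted p = 5.72e-05). Vps4b read 2009.5 and 1795 in Zfx-null ESC, against 1584 and 1440.3 in Zfx-flox ESC, and 9220.2 and 9124 in Zfx-cko HSC, against 7929.8 and 7930.1 in Zfx-flox HSC. It rose in ESC (log2 change 0.33 ± 0.07, adjusted p = 0.0072) and in HSC (log2 change 0.21 ± 0.07, adjusted p = 0.037). The Vps4a calls held under every setting tried. Those of Vps4b did not: its HSC change was 0.20 to 0.22 (adjusted p = 0.118 to 0.142) with any 1 of the 4 HSC arrays left out and 0.11 (adjusted p = 0.442) with median centring, and the mean of its probe sets gave 0.19 (adjusted p = 0.302) in ESC. The promoter windows of the pair are shown because the genes are paralogs that moved apart. Each is 300 bases long, from 250 bases before to 50 bases after the annotated start, in the RefSeq annotation of GRCm38.p6, with CG dinucleotides in capitals. The Vps4a window (chr8:107031019-107031318, plus strand) holds 26 CG dinucleotides and the Vps4b window (chr1:106796676-106796975, minus strand) holds 15, where the median of all windows was 7 and that of member windows 22.
Vps4a: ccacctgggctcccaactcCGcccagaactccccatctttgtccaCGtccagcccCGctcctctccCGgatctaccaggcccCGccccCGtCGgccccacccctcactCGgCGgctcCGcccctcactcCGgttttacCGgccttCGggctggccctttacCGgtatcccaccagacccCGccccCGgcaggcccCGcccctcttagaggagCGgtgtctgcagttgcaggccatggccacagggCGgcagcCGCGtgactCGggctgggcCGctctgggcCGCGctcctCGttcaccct
Vps4b: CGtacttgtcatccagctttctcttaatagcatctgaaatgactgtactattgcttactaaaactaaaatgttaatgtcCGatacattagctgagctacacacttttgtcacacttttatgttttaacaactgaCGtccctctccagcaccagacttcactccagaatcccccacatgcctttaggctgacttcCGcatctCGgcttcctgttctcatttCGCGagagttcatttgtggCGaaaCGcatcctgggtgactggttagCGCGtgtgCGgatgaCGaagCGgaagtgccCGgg

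Among ESCRT-I and ESCRT-II genes, 2 rose and 2 fell of 6 tested in ESC, and 3 rose and none fell of 7 in HSC. Vps36, the ubiquitin-binding subunit of ESCRT-II, had the smallest adjusted p of the members in HSC. It read 880.2 and 909 in Zfx-null ESC, against 679 and 664 in Zfx-flox ESC (log2 change 0.41 ± 0.06, adjusted p = 0.00107), and 2112 and 2134 in Zfx-cko HSC, against 1168 and 1165 in Zfx-flox HSC (log2 change 0.86 ± 0.06, adjusted p = 7.35e-06). The brightest probe set carried that HSC value, since the mean of its probe sets gave 0.30. Vps37c, an ESCRT-I subunit, rose alongside it: 339.8 and 299 in Zfx-null ESC, against 211 and 200.1 in Zfx-flox ESC (log2 change 0.60 ± 0.09, adjusted p = 0.00155), and 839.9 and 831 in Zfx-cko HSC, against 434 and 453 in Zfx-flox HSC (log2 change 0.89 ± 0.09, adjusted p = 8.08e-05). Its paralog Vps37a fell in ESC (269.6 and 233 in Zfx-null ESC, against 342 and 399 in Zfx-flox ESC, log2 change −0.53 ± 0.14, adjusted p = 0.0179) and was at 0.06 ± 0.14 in HSC, so these paralogs moved in opposite directions in ESC. Vps28, another ESCRT-I subunit, fell in ESC (log2 change −0.26 ± 0.08, adjusted p = 0.0308) and rose in HSC (1713 and 1768 in Zfx-cko HSC, against 1308 and 1386 in Zfx-flox HSC, log2 change 0.37 ± 0.08, adjusted p = 0.00399). The ESC change of Vps37a was −0.43 (adjusted p = 0.0959 to 0.105) with ESC Zfx-null replicate 2 or ESC Zfx-flox replicate 2 left out, and that of Vps28 was −0.28 to −0.17 (adjusted p = 0.0508 to 0.156) with ESC Zfx-null replicate 1, either ESC Zfx-flox array or either HSC Zfx-cko array left out. Averaging probe sets gave −0.26 (adjusted p = 0.0774) for Vps37a, and with median centring the HSC change of Vps28 was 0.27 (adjusted p = 0.0768).

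Of the 10 Chmp genes, whose proteins form the ESCRT-III filament, 5 rose and none fell in ESC. In HSC 2 rose and 1 fell of 9. Chmp1b, which recruits late-acting factors to the filament, read 491 and 453 in Zfx-null ESC, against 239.6 and 248 in Zfx-flox ESC (log2 change 0.91 ± 0.07, adjusted p = 6.39e-05), and 1439.8 and 1407 in Zfx-cko HSC, against 1097 and 1150.3 in Zfx-flox HSC (log2 change 0.34 ± 0.07, adjusted p = 0.00557). Chmp5, which binds the Vps4 activator, rose in both as well, with 2223 and 2249 in Zfx-null ESC, against 1487 and 1612 in Zfx-flox ESC (log2 change 0.53 ± 0.07, adjusted p = 0.000522), and 2545 and 2627 in Zfx-cko HSC, against 1902 and 2073 in Zfx-flox HSC (log2 change 0.38 ± 0.07, adjusted p = 0.00153). For both genes the Zfx-null and Zfx-cko arrays lay above their floxed arrays. Chmp4b, the main polymer-forming subunit, rose in ESC (log2 change 0.24 ± 0.06, adjusted p = 0.0158) and fell in HSC (log2 change −0.22 ± 0.06, adjusted p = 0.0168) by small amounts. Chmp7, which starts ESCRT-III assembly at the nuclear envelope, rose in ESC (log2 change 0.46 ± 0.11, adjusted p = 0.0155), and so did Chmp2b (log2 change 0.40 ± 0.10, adjusted p = 0.0159). These smaller changes were the less firm. Chmp4b was at 0.22 to 0.23 (adjusted p = 0.0626 to 0.064) with ESC Zfx-null replicate 1 or ESC Zfx-flox replicate 2 left out in ESC, and at −0.22 to −0.15 (adjusted p = 0.0696 to 0.141) with either HSC Zfx-cko array or HSC Zfx-flox replicate 2 left out in HSC. Chmp7 was at 0.39 to 0.42 (adjusted p = 0.0752 to 0.0893) with ESC Zfx-null replicate 1 or ESC Zfx-flox replicate 2 left out, and Chmp2b at 0.26 to 0.32 (adjusted p = 0.0818 to 0.0849) with ESC Zfx-null replicate 1 or ESC Zfx-flox replicate 2 left out. Averaging probe sets gave 0.27 (adjusted p = 0.218) for Chmp5 in ESC, and median centring gave 0.28 (adjusted p = 0.0569) for Chmp5 and 0.24 (adjusted p = 0.123) for Chmp1b in HSC.

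The plasma membrane syntaxins showed the largest HSC changes of all members. Stx11, which lacks a membrane anchor and is required for killing by cytotoxic lymphocytes in humans, read 479 and 531 in Zfx-cko HSC, against 1465 and 1536 in Zfx-flox HSC (log2 change −1.55 ± 0.13, adjusted p = 2.12e-05). In ESC, where its signal was far lower, it read 141 and 177 in Zfx-null ESC, against 101 and 86.6 in Zfx-flox ESC, and it rose (log2 change 0.68 ± 0.13, adjusted p = 0.00407). Stx2, a surface syntaxin of many tissues also known as epimorphin, followed the same pattern: 251 and 239 in Zfx-cko HSC, against 661 and 709 in Zfx-flox HSC (log2 change −1.43 ± 0.10, adjusted p = 1.08e-05), and 168 and 171 in Zfx-null ESC, against 117 and 116 in Zfx-flox ESC (log2 change 0.49 ± 0.10, adjusted p = 0.00745). Both genes thus had less signal in Zfx-cko HSC than in Zfx-flox HSC on every array and more in Zfx-null ESC than in Zfx-flox ESC. Stx3 instead rose in HSC (1006 and 1003 in Zfx-cko HSC, against 607 and 608 in Zfx-flox HSC, log2 change 0.71 ± 0.06, adjusted p = 2.64e-05), and rose by less in ESC (log2 change 0.24 ± 0.06, adjusted p = 0.0168), and Stx4a rose in ESC (639.9 and 617 in Zfx-null ESC, against 359 and 427 in Zfx-flox ESC, log2 change 0.66 ± 0.09, adjusted p = 0.000801) with −0.10 ± 0.09 in HSC. The ESC change of Stx3 was 0.23 to 0.24 (adjusted p = 0.0509 to 0.0631) with either ESC Zfx-null array or ESC Zfx-flox replicate 2 left out, and its HSC change was 0.39 for the mean of its probe sets. Their promoter windows are shown because these were the largest changes in HSC. The Stx11 window (chr10:12964210-12964509, minus strand) holds 27 CG dinucleotides, and the upstream of the Stx2 windows (chr5:129008523-129008822, minus strand) holds 25, both in capitals, from the same annotation and build.
Stx11: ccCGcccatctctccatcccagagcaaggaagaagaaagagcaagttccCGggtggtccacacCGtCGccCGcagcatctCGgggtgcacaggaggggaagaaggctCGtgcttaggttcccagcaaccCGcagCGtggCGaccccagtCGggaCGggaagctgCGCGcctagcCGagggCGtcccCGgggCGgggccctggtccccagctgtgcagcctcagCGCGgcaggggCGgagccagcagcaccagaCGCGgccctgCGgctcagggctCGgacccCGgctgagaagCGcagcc
Stx2: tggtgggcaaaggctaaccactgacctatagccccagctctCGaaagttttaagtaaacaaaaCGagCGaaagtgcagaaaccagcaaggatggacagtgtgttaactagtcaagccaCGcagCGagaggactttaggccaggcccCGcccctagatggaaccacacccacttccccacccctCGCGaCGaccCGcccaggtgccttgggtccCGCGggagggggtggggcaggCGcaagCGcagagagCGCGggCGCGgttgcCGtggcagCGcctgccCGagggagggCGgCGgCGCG

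Syntaxins of the endosome and Golgi were called in both directions, with 4 higher and 2 lower of 8 in ESC and 2 higher and 1 lower in HSC. Stx6, which fuses endosome-derived vesicles with the trans-Golgi, had the third largest rise in ESC. It read 871 and 841 in Zfx-null ESC, against 417 and 407 in Zfx-flox ESC (log2 change 1.03 ± 0.06, adjusted p = 1.95e-05), and 2521 and 2737 in Zfx-cko HSC, against 1982 and 1966 in Zfx-flox HSC (log2 change 0.41 ± 0.06, adjusted p = 0.000898). The HSC rise was not shared by its other probe sets: the mean of all of them gave −0.24 (adjusted p = 0.125), and 0.52 in ESC. Stx16, which works with Stx6 at the trans-Golgi, fell in ESC (475 and 466 in Zfx-null ESC, against 630.0 and 560.1 in Zfx-flox ESC, log2 change −0.33 ± 0.08, adjusted p = 0.0121). Stx5a, the syntaxin of transport between the endoplasmic reticulum and the Golgi, rose in HSC (903 and 927 in Zfx-cko HSC, against 688 and 681 in Zfx-flox HSC, log2 change 0.41 ± 0.07, adjusted p = 0.000905) and in ESC (log2 change 0.21 ± 0.07, adjusted p = 0.0389). Stx17, the syntaxin that joins autophagosomes to lysosomes, fell in both: 36.7 and 64.9 in Zfx-null ESC, against 89.3 and 80.9 in Zfx-flox ESC (log2 change −0.64 ± 0.20, adjusted p = 0.0399), and 232 and 223 in Zfx-cko HSC, against 354 and 355 in Zfx-flox HSC (log2 change −0.61 ± 0.20, adjusted p = 0.0376). The late and recycling endosome syntaxins Stx8 (log2 change 0.67 ± 0.16, adjusted p = 0.0142) and Stx12 (log2 change 0.51 ± 0.15, adjusted p = 0.0319) rose in ESC. Of these, the ESC changes of Stx5a, Stx17, Stx8, Stx12 and Stx16 and the HSC change of Stx17 missed the threshold with 1 array fewer. Stx5a was at 0.18 to 0.24 (adjusted p = 0.0595 to 0.143) with any 1 of the 4 ESC arrays or any 1 of the 4 HSC arrays left out. Stx17 was at −0.71 to −0.33 (adjusted p = 0.0625 to 0.187) with ESC Zfx-null replicate 1, either ESC Zfx-flox array or any 1 of the 4 HSC arrays left out in ESC, and at −0.64 to −0.58 (adjusted p = 0.109 to 0.141) with any 1 of the 4 HSC arrays left out in HSC. Stx8 was at 0.41 to 0.60 (adjusted p = 0.0708 to 0.0753) with ESC Zfx-null replicate 1 or ESC Zfx-flox replicate 2 left out, Stx12 at 0.39 to 0.55 (adjusted p = 0.052 to 0.168) with either ESC Zfx-null array, ESC Zfx-flox replicate 2 or either HSC Zfx-cko array left out and Stx16 at −0.25 (adjusted p = 0.0688) with ESC Zfx-flox replicate 1 left out. Averaging probe sets gave −0.37 (adjusted p = 0.105) for Stx17 and 0.37 (adjusted p = 0.0582) for Stx12 in ESC. In HSC the other Stx17 probe sets gave −2.03 (adjusted p = 0.000254), −0.74 (adjusted p = 0.0204) and 0.13 (adjusted p = 0.565).

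Among the Vamp genes, 3 rose and 1 fell of 6 in ESC, and 2 rose and 1 fell of 7 in HSC. Vamp7, a lysosomal SNARE with a longin domain, rose by nearly the same amount in both: 470.3 and 536 in Zfx-null ESC, against 359 and 356 in Zfx-flox ESC (log2 change 0.47 ± 0.08, adjusted p = 0.00176), and 1947 and 1977 in Zfx-cko HSC, against 1433 and 1421 in Zfx-flox HSC (log2 change 0.46 ± 0.08, adjusted p = 0.00116). Vamp3, the SNARE of recycling endosomes, rose in ESC (log2 change 0.34 ± 0.09, adjusted p = 0.0186) and in HSC (log2 change 0.43 ± 0.09, adjusted p = 0.00352). Its ESC change was 0.23 to 0.25 (adjusted p = 0.103 to 0.109) with ESC Zfx-null replicate 2 or ESC Zfx-flox replicate 1 left out, and in HSC the mean of its probe sets gave 0.17 (adjusted p = 0.085). Vamp4 of the trans-Golgi rose in ESC (log2 change 0.46 ± 0.08, adjusted p = 0.00288). Vamp8, a SNARE of late endosomes and secretory granules, fell in ESC (242 and 247 in Zfx-null ESC, against 343 and 324 in Zfx-flox ESC, log2 change −0.42 ± 0.07, adjusted p = 0.00221) and read 0.11 ± 0.07 in HSC. Vamp5, known from muscle, fell in HSC (2609.8 and 2725 in Zfx-cko HSC, against 4143 and 4118 in Zfx-flox HSC, log2 change −0.63 ± 0.11, adjusted p = 0.00149), with −0.32 for the mean of its probe sets, and this probe set was at or below 7.3 on every ESC array, with 17.8 to 31.1 for another.

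Of the remaining Vps genes, which include the lipid transfer proteins Vps13a to Vps13d and the SM protein Vps45, none of 6 passed in ESC and 2 of 7 passed in HSC. Vps13d fell (137 and 206 in Zfx-cko HSC, against 252 and 271 in Zfx-flox HSC, log2 change −0.59 ± 0.21, adjusted p = 0.0452) and the histone chaperone Vps72 rose (110.3 and 76.6 in Zfx-cko HSC, against 55.9 and 59 in Zfx-flox HSC, log2 change 0.57 ± 0.19, adjusted p = 0.0399). Neither was firm, with Vps13d at −0.64 to −0.32 (adjusted p = 0.106 to 0.287) with HSC Zfx-cko replicate 1 or either HSC Zfx-flox array left out and Vps72 at 0.34 to 0.60 (adjusted p = 0.098 to 0.247) with HSC Zfx-cko replicate 1 or either HSC Zfx-flox array left out. Averaging probe sets gave −0.25 (adjusted p = 0.301) for Vps13d.

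Taking both cell types at once, 88 members were tested in each. Of these, 15 were higher in both (17.05%, beside 6.97% of all 11175 genes tested in both), 2 were lower in both (2.27%, beside 6.27%), 6 were higher in ESC and lower in HSC (6.82%, beside 2.77%) and 2 were lower in ESC and higher in HSC (2.27%, beside 2.92%). The genes higher in both were Chmp1b, Chmp5, Snx6, Snx7, Snx18, Snx30, Snx33, Stx3, Stx5a, Stx6, Vamp3, Vamp7, Vps36, Vps37c and Vps4b, and those lower in both were Stx17 and Vps4a. Calls in both cell types were also counted together, with those in opposite directions included. They made up 64.1% of the 39 ESC calls and 67.6% of the 37 HSC calls among these members. Over all genes, counted the same way, they made up 60.7% of 3488 ESC calls and 42.7% of 4954 HSC calls. Across genes, which are not independent replicates, the changes in ESC and HSC correlated at r = 0.20 over the 88 members and 0.22 over all 11175 genes.

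The test of the difference itself, the HSC change minus the ESC change, called 10 members higher and 18 lower of 88. Over all genes it called 35.3%, with 17.6% higher and 17.7% lower. The widest gaps were those of Stx11 (−2.22 ± 0.18, adjusted p = 4.56e-05) and Stx2 (−1.92 ± 0.15, adjusted p = 3.61e-05), followed by Snx7 (−1.43 ± 0.14), Snx9 (−1.20 ± 0.22) and Snx24 (−1.10 ± 0.23). For Snx7 both changes were above 0 and the difference is one of size. The retromer genes Vps35 (−0.79 ± 0.09, adjusted p = 0.000224) and Snx1 (−0.84 ± 0.12, adjusted p = 0.000801) rose in ESC and fell in HSC. In the other direction stood Vps54 (0.93 ± 0.12, adjusted p = 0.000555), Vps39 (0.83 ± 0.13, adjusted p = 0.00167) and Vps28 (0.62 ± 0.11, adjusted p = 0.00219). For Vps4a the difference was −0.46 ± 0.16 and did not pass (adjusted p = 0.0522). This comparison leaned on the scaling: median centring gave 3 higher and 22 lower members, and quantile normalization within each cell type gave 8 and 24. Over all genes these gave 1220 higher and 2115 lower, and 1749 and 2172. Median centring also moved the median difference of all genes to −0.09, from 0.03 as scaled by the authors. Averaging probe sets gave −0.50 (adjusted p = 0.0588) for Vps35 and 0.43 (adjusted p = 0.235) for Vps39.

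**Figure D4:**
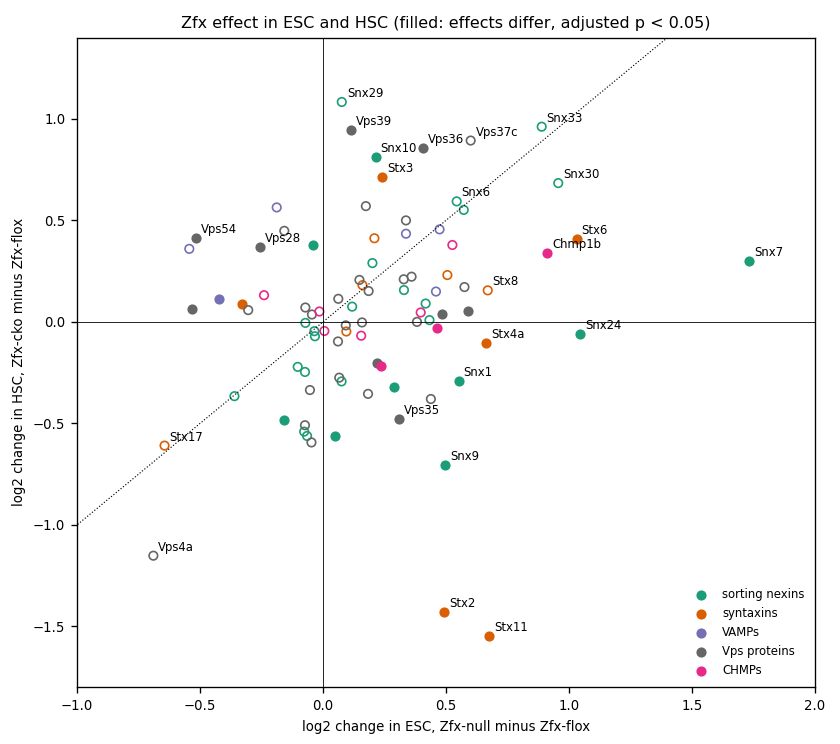
Log2 change in HSC (Zfx-cko minus Zfx-flox, vertical) against log2 change in ESC (Zfx-null minus Zfx-flox, horizontal) for the 88 members tested in both, coloured by family. Filled points have changes that differ between the cell types at an adjusted p under 0.05, and the dotted line marks equal change. Stx2 and Stx11 lie farthest below the line, and Vps4a lies below 0 on both axes.

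Other probe sets of the called members gave a check within the same arrays. In ESC, 43 of 46 other tested probe sets had the same sign as the called 1, and 14 of them also passed, with none past the threshold in the opposite direction. In HSC 35 of 47 had the same sign and 17 of them passed, and 1 passed in the opposite direction, a dim Stx6 probe set. Of members whose brightest probe set did not pass, 2 had another that passed in ESC, both higher (Stx18 and Vps26b), and 9 did in HSC (Vamp4, Vps13a, Vps18, Vps29, Vps33a, Vps35l, Vps37a, Vps41 and Vps53), with 5 such probe sets higher and 5 lower. Of the 96 member probe sets, 8 carry the Affymetrix suffix s and 6 the suffix x, which mark probes that may match other transcripts. These include the ones for Stx6, Vamp3, Vps37c, Chmp4b, Snx16, Snx17 and Stx5a, whose values may therefore hold signal of related genes.

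Levels of the members in the floxed groups differed widely between the cell types, although HSC RNA passed through 2 rounds of amplification from 100 ng and ESC RNA through 1 round from 2500 ng, so cell type and amplification cannot be told apart and no test was made. On the log2(signal + 14.2) scale, 19 of the 88 members tested in both were more than 1 higher in Zfx-flox HSC than in Zfx-flox ESC, 13 were more than 1 lower and 56 lay within 1. Vamp5 read 4143 and 4118 in Zfx-flox HSC, against 6.94 and 5.53 in Zfx-flox ESC, where it was below the floor, so no difference is given. Stx11 (1465 and 1536 in Zfx-flox HSC, against 101 and 86.6 in Zfx-flox ESC) and Vamp8 (2352 and 2347 in Zfx-flox HSC, against 343 and 324 in Zfx-flox ESC) were mostly HSC signals, with level differences of 3.81 and 2.77. Stx1a, a synaptic syntaxin, was the reverse, with 8.15 and 7.8 in Zfx-flox HSC, against 368 and 336 in Zfx-flox ESC, and below the floor in HSC. Among sorting nexins the extremes were Snx12 (2.04) and Snx24 (−2.28), among Vps genes Vps13b (2.43) and Vps72 (−2.78), and among Chmp genes Chmp2b (2.19) and Chmp2a (−1.52). Snx22 had the same level in both to within 0.01.

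**Figure D5:**
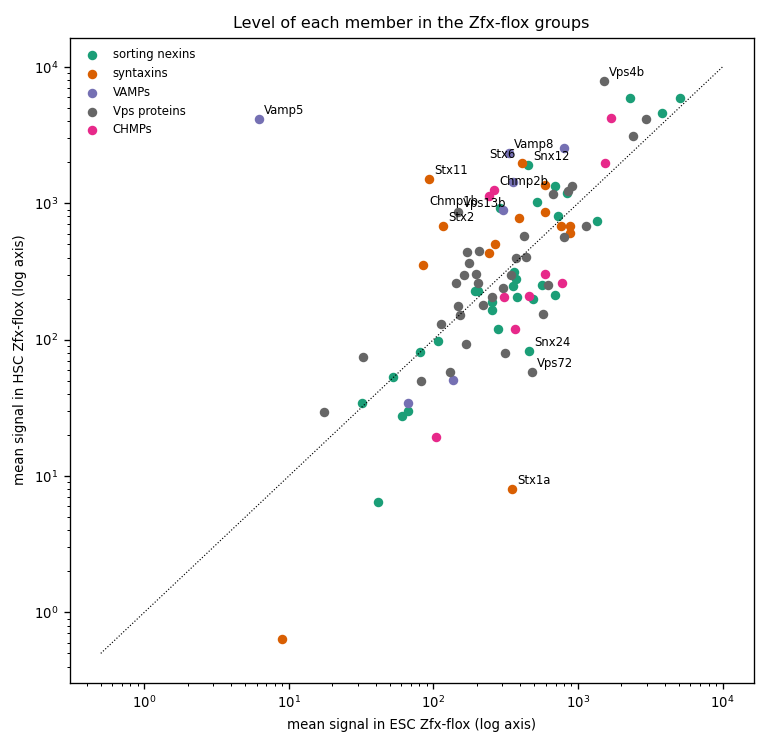
Mean signal of each member in Zfx-flox HSC (vertical, log axis) against Zfx-flox ESC (horizontal, log axis), 2 arrays each, with the dotted line at equal signal and members more than 2 apart in log2 level named. Vamp5 and Stx11 lie far above the line and Stx1a far below it, with Vamp5 under the floor in ESC and Stx1a in HSC.

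Partner genes outside these families were counted from 3 lists. Beside these counts, 15.8% of all genes tested were called higher and 14.9% lower in ESC, and 22.7% and 19.9% in HSC. Of the SNARE machinery, 9 rose and 1 fell of 30 tested in ESC (median 0.13), and 7 rose and 7 fell of 30 in HSC (median −0.03). In ESC these included Sec22b (0.82), Stxbp3 (0.62), an SM protein that binds surface syntaxins, and Snap23 (0.61), their usual SNARE partner. Stxbp3 (−0.50) and the disassembly ATPase Nsf (−0.49) fell in HSC together with Vti1a (−0.85), while Napb (0.92) rose. Of the other ESCRT genes, 7 rose and 1 fell of 16 in ESC (median 0.19), and 6 rose and 2 fell of 15 in HSC (median 0.06). Stambp, a deubiquitinase of endosomal cargo, rose in ESC (1.10) and fell in HSC (−0.48), and Cep55, which brings ESCRT to the dividing cell's midbody, fell in ESC (−0.63) and rose in HSC (1.03). Of the endosomal tethers, Rab proteins and sorting receptors, 16 rose and 3 fell of 45 in ESC (median 0.16), and 12 rose and 15 fell of 45 in HSC (median −0.10). Rab11a of recycling endosomes (0.70) and Ehd1 (0.58) rose in ESC and the early endosome tether Eea1 fell (−0.84). In HSC the recycling and early endosome Rabs Rab4a (−1.59) and Rab22a (−1.10) fell, while the retromer cargo receptors Sorl1 (1.36) and Sort1 (0.93) rose. These values are log2 changes past the threshold from the same fits.

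The member promoters were searched for AGGCCT, a core of the motif known for Zfx, which reads the same on both strands, so that a match on 1 strand is a match on the other. Of the 96 members, 67 had 1 or more windows in the RefSeq table, 83 in all. The letters were in 5 of these 83 windows (6.02%) and in 3372 of all 32851 windows (10.3%). By gene, 4 of 67 members held them (5.97%), beside 11.6% of all 27025 genes with a window. These were Snx11, Snx29, Stx5a and Vps52, of which Stx5a was the only 1 called in either cell type. Its window (chr19:8741174-8741473, plus strand) is shown with the match in capitals, starting at base 56 of the window.
Stx5a: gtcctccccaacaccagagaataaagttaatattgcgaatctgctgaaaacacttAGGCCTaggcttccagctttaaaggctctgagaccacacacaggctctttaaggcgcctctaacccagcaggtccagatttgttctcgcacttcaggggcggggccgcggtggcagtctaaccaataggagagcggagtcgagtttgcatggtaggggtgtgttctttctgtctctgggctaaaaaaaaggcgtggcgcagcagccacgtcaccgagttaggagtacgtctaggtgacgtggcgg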

How the data were processed

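RNA of 4 groups was hybridised to 8 arrays. The deposited values are linear intensities, which the authors made with GCOS 1.4, per the submitters' processing notes, and every array had a 2% trimmed mean of 250. The method that summarised probes is not given in the labels used here. Of 45101 probe sets, 64 were controls, 34945 had 1 gene symbol, 932 several and 9160 none, and 34741 matched RefSeq.

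From there, log2(intensity + 14.2), with the 25th percentile of all values as pseudocount, was fitted for the 4 groups together with limma 3.58.1 in R 4.3.3 (variance trend), 1 probe set per gene, after a floor at the 40th percentile of a cell type's means. P-values were Benjamini-Hochberg adjusted over all genes tested, with a threshold of 0.05. The number of arrays limits precision, with 4 residual degrees of freedom. The fit was tested on simulated data. The members, roles, partner and marker lists were chosen with earlier results of these data known. Named members were those past the threshold, the brightest of a family and the extremes in level, and partners up to 3 a direction. Other members named were chosen after their values were seen. Replicate numbers were not used as pairs in the main fit. Deviations of replicate 1 correlated at 0.26 between ESC groups, so ESC arrays of the same number shared some variation. That correlation was 0.057 between HSC groups and −0.036 to −0.015 across cell types. Whether ESC arrays of the same number were handled together was not tested. The alternatives were other pseudocounts, floors, scalings, probe set choices, fits and each array left out.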

Additional observations from a re-analysis of the deposited data

Results flagged for a closer look

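The change with loss of Zfx differed between HSC and ESC, by the limma test of the difference (HSC change minus ESC change), for 28 of the 88 members tested in both. That is 31.8% of them, beside 35.3% of all 11175 genes tested in both, so members were not called more often than genes in general. By direction, 11.4% of members had the higher and 20.5% the lower HSC change, beside 17.6% and 17.7% of all genes. Values are log2 differences, ± SE.

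The HSC change was the lower for 18 members. For Stx11 (−2.22 ± 0.18), Stx2 (−1.92 ± 0.15), Snx9 (−1.20 ± 0.22), Snx1 (−0.84 ± 0.12), Vps35 (−0.79 ± 0.09) and Chmp4b (−0.45 ± 0.08), the gene rose in Zfx-null ESC and fell in Zfx-cko HSC, each past the threshold. Snx7 (−1.43 ± 0.14), Stx6 (−0.62 ± 0.09) and Chmp1b (−0.57 ± 0.11) rose in both, by less in HSC. Snx24 (−1.10 ± 0.23), Stx4a (−0.77 ± 0.13), Vps26c (−0.53 ± 0.12), Chmp7 (−0.49 ± 0.16) and Vps33a (−0.44 ± 0.13) rose in ESC and did not pass in HSC, and Snx16 (−0.61 ± 0.14), Snx14 (−0.61 ± 0.16) and Snx5 (−0.32 ± 0.09) fell in HSC and did not pass in ESC. Vps26b (−0.42 ± 0.14) passed in neither alone. The difference for Chmp7 was −0.54 to −0.39 (adjusted p = 0.0624 to 0.135) with ESC Zfx-null replicate 1, either ESC Zfx-flox array, either HSC Zfx-cko array or HSC Zfx-flox replicate 2 left out. For Vps33a it was −0.47 to −0.41 (adjusted p = 0.0578 to 0.0854) with ESC Zfx-null replicate 2, ESC Zfx-flox replicate 1 or any 1 of the 4 HSC arrays left out, for Vps26b −0.47 to −0.37 (adjusted p = 0.0618 to 0.132) with any 1 of the 4 ESC arrays or any 1 of the 4 HSC arrays left out, for Snx5 −0.31 to −0.25 (adjusted p = 0.0519 to 0.0746) with ESC Zfx-null replicate 1, ESC Zfx-flox replicate 2, HSC Zfx-cko replicate 1 or HSC Zfx-flox replicate 2 left out and for Snx14 −0.59 (adjusted p = 0.0503) with HSC Zfx-flox replicate 2 left out. The mean of all probe sets gave −0.50 (adjusted p = 0.0588) for Vps35, −0.42 (adjusted p = 0.151) for Chmp7 and −0.20 (adjusted p = 0.0777) for Snx5.

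The HSC change was the higher for 10 members. Vps54 (0.93 ± 0.12) and Vps28 (0.62 ± 0.11) fell in ESC and rose in HSC. Vps36 (0.45 ± 0.08) and Stx3 (0.47 ± 0.09) rose in both, by more in HSC, but with the mean of all probe sets of a gene the difference was 0.01 (adjusted p = 0.969) for Vps36 and 0.12 (adjusted p = 0.675) for Stx3. Vps39 (0.83 ± 0.13), Snx10 (0.60 ± 0.16) and Snx13 (0.42 ± 0.14) rose in HSC and did not pass in ESC, and Vps37a (0.60 ± 0.19), Vamp8 (0.54 ± 0.10) and Stx16 (0.42 ± 0.11) fell in ESC and did not pass in HSC. The difference for Snx10 was 0.54 to 0.60 (adjusted p = 0.0547 to 0.0767) with ESC Zfx-null replicate 1, HSC Zfx-cko replicate 2 or either HSC Zfx-flox array left out. For Snx13 it was 0.31 to 0.47 (adjusted p = 0.0547 to 0.124) with ESC Zfx-null replicate 2, either ESC Zfx-flox array or any 1 of the 4 HSC arrays left out, for Vps37a 0.46 to 0.50 (adjusted p = 0.109 to 0.139) with ESC Zfx-null replicate 2, ESC Zfx-flox replicate 2, HSC Zfx-cko replicate 1 or HSC Zfx-flox replicate 1 left out and for Stx16 0.39 to 0.40 (adjusted p = 0.0584 to 0.059) with HSC Zfx-cko replicate 1 or HSC Zfx-flox replicate 1 left out. The mean of all probe sets gave 0.10 (adjusted p = 0.629) for Vps37a and 0.43 (adjusted p = 0.235) for Vps39. With median centring 3 of the 10 still passed.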

How the results depend on the processing

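Over 21 alternatives, 5237 single-member values stayed on their side of the threshold, and those of them that passed kept their direction. Values that did not pass were counted here whatever their sign. Of the others, 238 no longer passed, 67 newly passed and 4 reversed with a pass in the main fit or the alternative. The reversals were Stx6 (−0.24), Vps33a (−0.45) and Vps41 (0.27) in HSC with the mean of all probe sets of a gene, and the difference between cell types for Snx6 (−0.53) with the probe set of highest linear mean. Calls kept under every alternative numbered 17 of 32 higher and 3 of 7 lower in ESC, and 12 of 21 higher and 8 of 17 lower in HSC. Not every alternative could move every call. A member with 1 probe set keeps its log2 change whatever the choice of probe set. Another tested probe set existed for 26 of 39 called members in ESC and 25 of 38 in HSC. Leaving out 1 array gave 24 to 30 higher and 4 to 6 lower members in ESC, 17 to 21 higher and 10 to 17 lower in HSC, and 6 to 10 higher and 14 to 18 lower for the difference. In ESC the mean of probe sets gave 23 higher and 5 lower members, and the fit without the variance trend gave 24 and 6. Members with a higher HSC than ESC change numbered 3 with median centring, 6 with the mean of probe sets and 6 without the variance trend, and the cause was not tested. The replicate block gave 32 and 7 in ESC, 22 and 17 in HSC, and 9 and 18 for the difference. Fitting all probe sets, an alternative chosen after seeing the data, called 1894 genes higher and 1771 lower in ESC, against 1998 and 1889. With 2 arrays per group only changes above the array spread can pass, and dim members were not tested.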
